A study of Mus musculus with 12 samples.

Results

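Inflammatory cytokines and the feedback genes of NF-kB were followed in Lewis lung carcinoma tissue from mouse lungs: Tnf, Il1a, Il1b, Il1rn, Il1r2, Il6, Nos2, Tnfaip3, Birc3 and Bcl3. These 10 genes were taken by name from the array annotation, each was measured by 1 probe set, and all 10 were found among the 19937 genes with a probe set that names 1 gene. Lewis lung carcinoma is a mouse tumour line that can be grafted into hosts of its strain, and RNA of the resected tissue was measured on 12 Affymetrix arrays. The hosts were female mice of the C57BL/6 strain, either wild type or labelled RelA/p65 deficient, and were exposed to air or to smoke, with 3 arrays in each of the 4 groups. The series title places the RelA/p65 of interest in myeloid cells. The deleted part of the gene, any Cre driver, the ages of the mice and the kind, dose and length of the smoke exposure are not given in the sources used here. Whether the 3 arrays of a group came from different animals is not stated, and p-values therefore measure just how far these samples scatter, and that scatter may be technical.

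NF-kB is a family of dimeric transcription factors, RelA/p65 among them, that inhibitor proteins hold in the cytoplasm until a receptor signal frees them. Tumour necrosis factor and the interleukin-1 cytokines are classical signals of this kind, and their genes are in turn NF-kB targets, which gives a loop that amplifies itself. The loop is restrained at several steps. IL-1 is held back by a receptor antagonist (Il1rn) and a decoy receptor (Il1r2), and the pathway itself by the ubiquitin-editing enzyme A20 (Tnfaip3). In lung and in tumours, macrophages, monocytes and neutrophils are major sources of these transcripts.

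The promoters below are shown because the best known link between these genes is NF-kB binding near their start sites, and the 4 genes printed stand for those with and without a match. RefSeq promoter windows (build GRCm38.p6, 250 bases before to 50 after a start) were at hand for 9 of the 10 genes, with 12 starts in all, and not for Nos2. Only the 250 bases before the start are printed, 5′ to 3′ on the strand of the gene, and capitals mark matches to the NF-kB consensus decamer (the kB consensus) or to TATAAA on either strand.
Il6: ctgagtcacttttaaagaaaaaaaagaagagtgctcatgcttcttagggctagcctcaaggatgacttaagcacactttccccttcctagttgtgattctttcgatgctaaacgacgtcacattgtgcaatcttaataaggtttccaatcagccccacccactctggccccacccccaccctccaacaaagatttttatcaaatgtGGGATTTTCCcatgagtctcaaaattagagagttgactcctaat
Tnfaip3: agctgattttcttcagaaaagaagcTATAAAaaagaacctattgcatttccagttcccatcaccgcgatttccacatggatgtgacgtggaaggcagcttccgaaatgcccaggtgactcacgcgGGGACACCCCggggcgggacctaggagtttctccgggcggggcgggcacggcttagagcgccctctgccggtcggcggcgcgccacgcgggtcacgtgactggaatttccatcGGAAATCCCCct
Il1b: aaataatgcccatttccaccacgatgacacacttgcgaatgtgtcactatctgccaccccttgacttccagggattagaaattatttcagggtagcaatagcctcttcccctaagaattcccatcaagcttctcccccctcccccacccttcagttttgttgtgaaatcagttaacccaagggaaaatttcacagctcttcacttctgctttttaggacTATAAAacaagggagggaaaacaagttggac
Tnf: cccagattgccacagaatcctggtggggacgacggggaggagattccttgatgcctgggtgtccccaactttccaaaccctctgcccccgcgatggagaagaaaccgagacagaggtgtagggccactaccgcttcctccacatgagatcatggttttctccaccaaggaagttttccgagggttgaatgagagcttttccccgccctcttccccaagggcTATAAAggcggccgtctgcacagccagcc
These stretches lie at chr5:30012864-30013113 (plus strand), chr10:19015411-19015660, chr2:129371140-129371389 and chr17:35202008-35202257 (all minus strand). The kB consensus was present in 3 of the 12 windows, which belong to 3 genes, and in 4.51% of 32851 mouse promoter windows of the same length. Tnfaip3 matches below are in the window of the start printed, and the window of its other start held none. Il6 has GGGATTTTCC from base -44 relative to the start site, and Tnfaip3 has GGGACACCCC from -125. Written as the letters of the gene's own strand, Tnfaip3 also has GGAAATCCCC from -12 and Bcl3 has GGGAAGTCCC from base 3 of the transcript, and in both of these the consensus is met on the opposite strand. TATAAA occurred in 5 of the 12 windows and in 13.6% of all windows, at -29 in Tnf, -32 in Il1a and -31 in Il1b. The looser pattern GGGNNNNNCC, which contains every kB consensus match, was in 9 of the 12 windows and in 50.8% of all windows. A match describes these letters alone, and sites farther from the start were not looked at.

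Values below are log2 expression as deposited, given for replicates 1, 2 and 3 of a group, or as mean ± SD (n = 3 arrays). Differences are on the log2 scale ± SE from limma, a linear model fitted to all genes, and a gene is said to rise or fall where its Benjamini-Hochberg adjusted p over all 19937 genes is under 0.05. Arrays of 1 group correlated across genes with r from 0.990 to 0.998. With each array centred on its median, the median difference of all genes moved from 0.08 to 0.17 for smoke in wild type, from -0.03 to -0.11 for genotype in air, from -0.14 to -0.28 for genotype under smoke and from -0.08 to -0.14 for the interaction. The share of higher genes among those that passed then moved from 51.8% to 77.1%, from 53.2% to 39.6%, from 38.0% to 22.9% and from 60.9% to 41.4%. Rela itself did not read lower with the deficient label: its level was 9.22 ± 0.06 and 9.08 ± 0.10 in wild type air and smoke, and 9.42 ± 0.04 and 9.31 ± 0.05 in deficient air and smoke, and it was higher by 0.20 ± 0.07 in air (limma adjusted p = 0.0285) and 0.23 ± 0.07 under smoke (limma adjusted p = 0.00873). Which part of the gene the probe set covers relative to the deletion is unknown here. The groups are therefore named by their label alone: deficient air and deficient smoke are the arrays labelled so, and genotype is the genotype on the label.

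Of the 10 genes 8 passed the test in at least 1 comparison. The share of all genes that did so was not counted. It is at least 59.6%, the share that passed for genotype under smoke alone. The count of 8 is therefore not read as a trait of these genes. By their calls for smoke and for genotype, Tnf and Tnfaip3 had the same pattern, as had Il1r2 and Nos2, and Birc3 and Il1a. Il1b and Il1rn each had a pattern of their own. With smoke in wild type hosts 6 of 10 rose (Il1b, Il1r2, Nos2, Tnfaip3, Il1rn and Tnf) and 0 fell, where 15% of all genes rose and 14% fell. The 6 did not overlap between the groups, as was so for 20.8% of all genes in that direction. With smoke in labelled-deficient hosts 0 rose and 2 fell, Tnf and Tnfaip3, against 0.692% and 1.72% of all genes. Both had groups that did not overlap, as had 13.7% of all genes. In air, 6 of 10 were higher in the labelled-deficient arrays (Tnfaip3, Birc3, Il1rn, Tnf, Il1b and Il1a) and 0 lower, against 20.5% and 18% of all genes, again without overlap between the groups (25.6% of all genes). Under smoke, 3 were higher in the labelled-deficient arrays (Birc3, Il1rn and Il1a) and 2 lower (Il1r2 and Nos2), against 22.7% and 37% of all genes. In that comparison the groups did not overlap for 4 genes in the higher direction, Il1b being the fourth, and for 2 in the lower direction (23.6% and 37.6% of all genes).

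**Figure D1:**
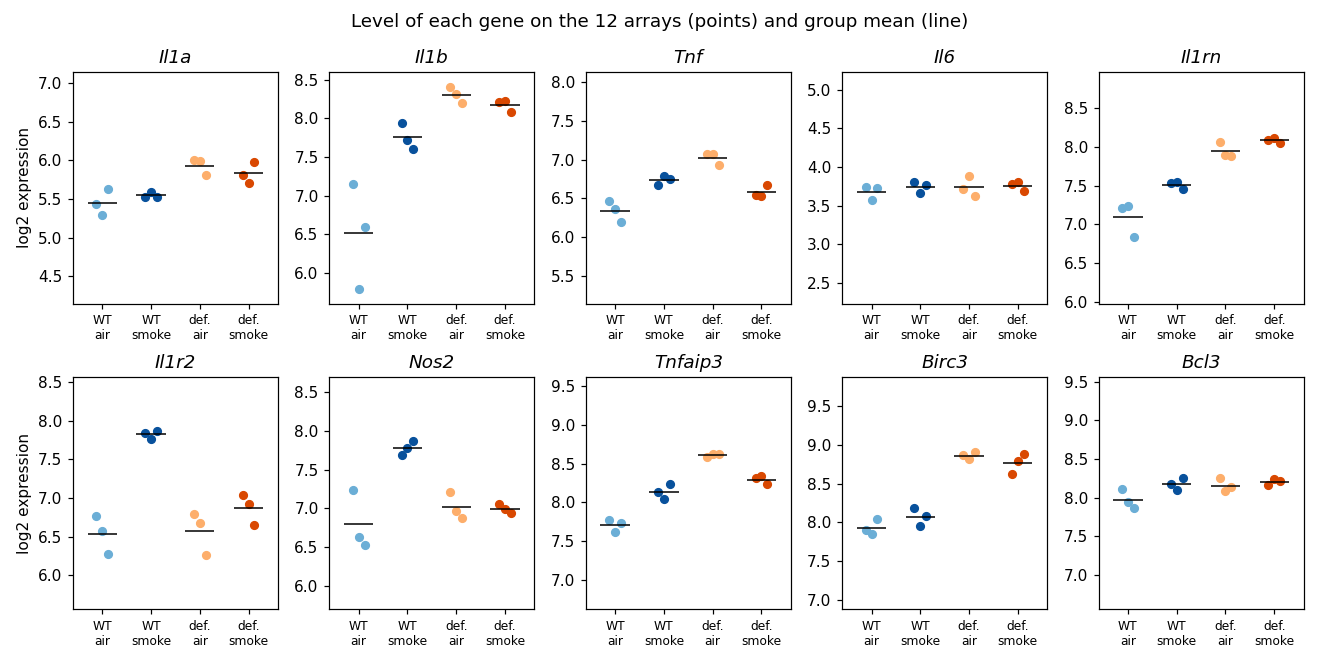
Log2 expression of the 10 genes (y axis, 3 log2 units in every panel) on each of the 12 arrays (points) in the 4 groups (x axis; WT, wild type; def., labelled deficient), with group means as lines. Il1r2 and Nos2 are highest in wild type smoke (means 7.83 and 7.78), Birc3 and Il1rn are higher in both deficient groups, and Il6 stays between 3.58 and 3.89.

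The median difference of the 10 genes was 0.41 for smoke in wild type and -0.06 for smoke in labelled-deficient hosts, and 0.58 and 0.09 for genotype in air and under smoke. Over all genes these medians were 0.08, -0.00, -0.03 and -0.14. The comparisons share arrays: wild type air is the reference both for smoke in wild type and for genotype in air, so these values are not independent of each other. Wild type air had the lowest mean of the 4 groups for each of the 10 genes. The share of all genes with this order was not counted, and some gaps were within the scatter. Among the marker lists read below, the macrophage and monocyte mean (8.99) and the neutrophil mean (6.34) were also lowest in wild type air. Alveolar, endothelial, T and NK cell and B cell means were lowest in wild type smoke, and that of mitotic genes in deficient smoke. Il1r2 was 6.54 ± 0.25 in wild type air and 6.58 ± 0.28 in deficient air, and Il6 was 3.68 ± 0.09 and 3.74 ± 0.13.

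**Figure D2:**
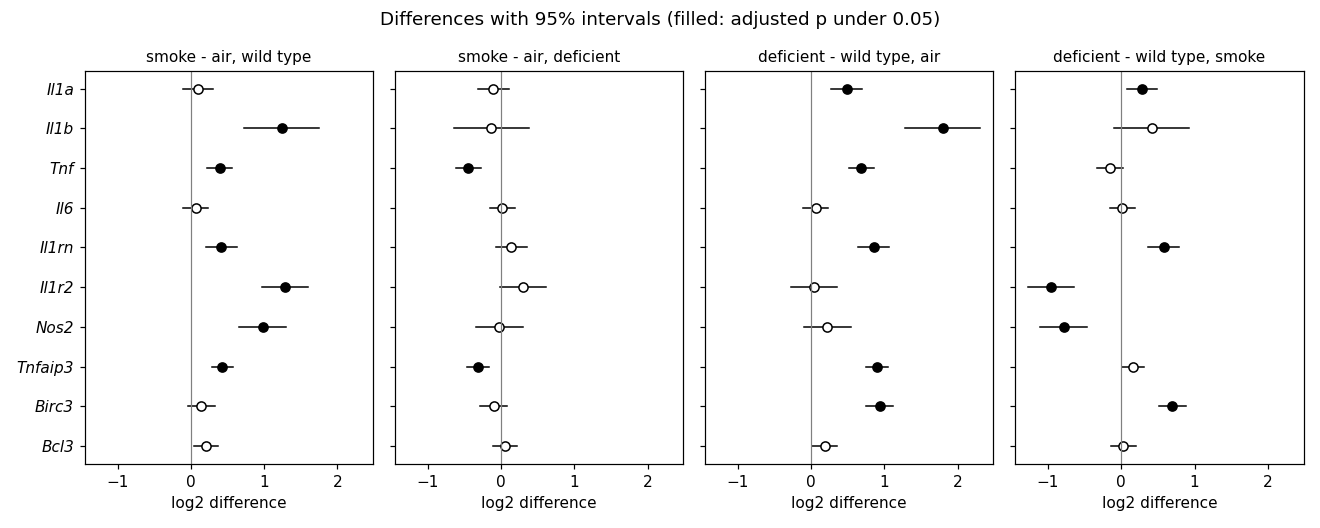
Log2 difference of each of the 10 genes (points) with its 95% interval (bars) in 4 comparisons, with filled points for an adjusted p under 0.05. Il1b has the widest intervals, from 1.28 to 2.31 for genotype in air, and the intervals of Il6 include 0 in each panel.

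The ligands come first. Il1b encodes interleukin-1 beta, which macrophages make as an inactive precursor. Its level was 7.15, 5.79 and 6.59 under air and 7.94, 7.72 and 7.60 under smoke in wild type hosts. In labelled-deficient hosts the values were 8.41, 8.31 and 8.20 under air and 8.21, 8.22 and 8.08 under smoke. Wild type air was the low group and also the most scattered (SD 0.68), and no other group reached down to it. Il1b rose with smoke in wild type hosts by 1.24 ± 0.24 (2.37-fold; limma adjusted p = 0.00156). In air Il1b was 1.80 ± 0.24 higher in the labelled-deficient arrays (3.47-fold; limma adjusted p = 4.19e-05), the greatest difference among the 10 genes. In labelled-deficient hosts the smoke difference was -0.14 ± 0.24, with a 95% interval from -0.65 to 0.38. Under smoke the labelled-deficient arrays lay above the wild type arrays without overlap, by 0.42 ± 0.24, a difference that did not pass (limma adjusted p = 0.143). It passed with array weights (0.0294), with the 6 compared arrays fitted alone (0.009), and without wild type air replicate 1 (0.0445) or 2 (0.0162), with a difference of 0.42 to 0.44 in these fits.

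Tnf encodes tumour necrosis factor, an early product of activated macrophages. It was 6.46, 6.37 and 6.19 under air and 6.67, 6.78 and 6.75 under smoke in wild type hosts. The labelled-deficient arrays read 7.07, 7.08 and 6.93 under air and 6.54, 6.53 and 6.67 under smoke. Deficient air stood above every other array, and the 2 smoke groups met at 6.67. Smoke went with a rise of 0.39 ± 0.08 in wild type hosts (1.31-fold; limma adjusted p = 0.00247), whereas in labelled-deficient hosts Tnf fell by 0.44 ± 0.08 (limma adjusted p = 0.00872). The fall was not called without deficient air replicate 1 (adjusted p = 0.0521) or replicate 2 (adjusted p = 0.0563). In air Tnf was 0.68 ± 0.08 higher in the labelled-deficient arrays (1.61-fold), and under smoke the difference was -0.15 ± 0.08 (limma adjusted p = 0.110), which became -0.30 (adjusted p = 0.00351) with median centring, -0.20 (adjusted p = 0.0261) with quantile normalization and -0.19 (adjusted p = 0.0176) with array weights.

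Il1a, for interleukin-1 alpha, which epithelial and myeloid cells hold ready as an active protein, was dim. All 12 arrays were below 6, from 5.29 to 6.00, and the gene did not enter the fit limited to brighter genes. Wild type air read 5.44, 5.29 and 5.62, wild type smoke 5.53, 5.59 and 5.52, deficient air 6.00, 5.99 and 5.81, and deficient smoke 5.81, 5.70 and 5.98. The labelled-deficient arrays were above the wild type arrays at either exposure, by 0.48 ± 0.10 in air (limma adjusted p = 0.0011) and 0.28 ± 0.10 under smoke (limma adjusted p = 0.0223). The difference under smoke was lost with median centring (0.14, adjusted p = 0.189), without wild type smoke replicate 3 (adjusted p = 0.0571) and without deficient smoke replicate 3 (adjusted p = 0.0999).

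Il6, the cytokine that signals through gp130 and STAT3, lay between 3.58 and 3.89 on all 12 arrays. Group means were 3.68, 3.75, 3.74 and 3.76 in wild type air, wild type smoke, deficient air and deficient smoke. The differences of the 4 comparisons were between 0.01 and 0.07 and did not pass, and their intervals lay between -0.16 and 0.24. A level this low leaves little room to see a fall.

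The 2 brakes on IL-1 did not move alike. Il1rn, the receptor antagonist that blocks IL-1 signalling, was 7.21, 7.24 and 6.83 under air and 7.53, 7.54 and 7.45 under smoke in wild type hosts. In labelled-deficient hosts they were 8.06, 7.89 and 7.89 under air and 8.10, 8.11 and 8.05 under smoke. All labelled-deficient arrays lay above all wild type arrays. The genotype difference was 0.85 ± 0.10 in air (1.81-fold; limma adjusted p = 1.19e-05) and 0.58 ± 0.10 under smoke (1.49-fold; limma adjusted p = 2.19e-04). Il1rn rose with smoke by 0.42 ± 0.10 in wild type hosts (limma adjusted p = 0.00623), and the difference in labelled-deficient hosts was 0.14 ± 0.10 without passing.

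Il1r2 encodes the decoy receptor that binds IL-1 without signalling. It was 6.76, 6.57 and 6.27 under air and 7.84, 7.77 and 7.87 under smoke in wild type hosts. The labelled-deficient arrays read 6.79, 6.67 and 6.26 under air and 7.03, 6.92 and 6.66 under smoke. The wild type smoke arrays stood alone at the top, while the other 3 groups overlapped. With smoke it rose by 1.29 ± 0.15 in wild type hosts (2.45-fold; limma adjusted p = 1.74e-05), and under smoke it was lower in the labelled-deficient arrays, with a difference of -0.96 ± 0.15 (limma adjusted p = 9.19e-05). In air the genotype difference was 0.04 ± 0.15, with an interval from -0.27 to 0.36.

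Nos2, the inducible nitric oxide synthase of activated macrophages, was likewise highest in wild type smoke. It read 7.24, 6.63 and 6.53 under air and 7.69, 7.78 and 7.87 under smoke in wild type hosts. In labelled-deficient hosts it read 7.21, 6.96 and 6.88 under air and 7.05, 7.00 and 6.94 under smoke. Wild type air replicate 1 stood apart from the other arrays of its group and above all labelled-deficient arrays. Nos2 rose with smoke in wild type hosts by 0.98 ± 0.15 (1.97-fold; limma adjusted p = 2.66e-04), and under smoke the labelled-deficient arrays were lower, at -0.79 ± 0.15 (limma adjusted p = 5.91e-04). In air the difference of 0.22 ± 0.15 did not pass, but without wild type air replicate 1 it was 0.44 (adjusted p = 0.00414).

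Among the intracellular feedback genes, Tnfaip3 encodes A20. It was 7.77, 7.62 and 7.73 under air and 8.13, 8.04 and 8.24 under smoke in wild type hosts. The labelled-deficient arrays read 8.58, 8.62 and 8.63 under air and 8.31, 8.34 and 8.23 under smoke. Wild type air was the low group and deficient air the high one, and the smoke groups lay between them and overlapped. It was higher in deficient air than in wild type air by 0.90 ± 0.07 (1.87-fold; limma adjusted p = 4.55e-07). With smoke it rose by 0.43 ± 0.07 in wild type hosts (limma adjusted p = 4.00e-04) and fell by 0.32 ± 0.07 in labelled-deficient hosts (limma adjusted p = 0.0289). Under smoke the genotype difference of 0.16 ± 0.07 did not pass (limma adjusted p = 0.0663), but it did with array weights (0.23, adjusted p = 0.00166) and without wild type smoke replicate 3 (0.21, adjusted p = 0.0271). The fall with smoke was lost when any 1 of the 6 arrays compared was left out (adjusted p from 0.0673 to 0.156) and with median centring (adjusted p = 0.0507), with a difference from -0.34 to -0.29 in these fits.

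Birc3, which encodes the ubiquitin ligase cIAP2 of the TNF receptor complex, separated the labelled genotypes. It read 7.90, 7.85 and 8.05 under air and 8.18, 7.96 and 8.08 under smoke in wild type hosts. The labelled-deficient arrays read 8.87, 8.82 and 8.91 under air and 8.63, 8.79 and 8.89 under smoke. Every deficient array was above every wild type array, by 0.93 ± 0.08 on average in air (1.91-fold; limma adjusted p = 1.76e-06) and 0.69 ± 0.08 under smoke (1.62-fold; limma adjusted p = 1.23e-05). Smoke differences of 0.14 ± 0.08 and -0.10 ± 0.08 in wild type and labelled-deficient hosts did not pass.

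Bcl3, an atypical inhibitor protein that works in the nucleus with the p50 and p52 subunits, ranged only from 7.86 to 8.26. Group means were 7.97, 8.18, 8.16 and 8.21 in wild type air, wild type smoke, deficient air and deficient smoke. The differences nearest to the threshold were 0.21 ± 0.08 for smoke in wild type (limma adjusted p = 0.0597) and 0.18 ± 0.08 for genotype in air (limma adjusted p = 0.0781). Without wild type air replicate 1 both passed, at 0.27 (adjusted p = 0.0229) and 0.25 (adjusted p = 0.0249), and the first also passed with quantile normalization (adjusted p = 0.00946) and median centring (adjusted p = 0.00703).

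The difference between the smoke responses of the 2 labelled genotypes was tested as an interaction, the smoke difference in deficient minus that in wild type hosts. It was below 0 for all 10 genes, and its median over all genes was below 0 too, at -0.08. The share of all genes below 0 was not counted. The interaction of Il6 reached 0.02 when 1 array was left out. Wild type air, the group with the lowest means, is part of this difference as well. The interaction passed below 0 for 5 of the 10 genes and above 0 for 0, where 5.7% of all genes passed below and 8.89% above 0. The 5 were Tnf (-0.84 ± 0.11; limma adjusted p = 1.55e-04), Tnfaip3 (-0.75 ± 0.10; 1.18e-04), Il1r2 (-1.0 ± 0.21; 0.00449), Nos2 (-1.0 ± 0.21; 0.00508) and Il1b (-1.38 ± 0.33; 0.0127). A count of 5 was also found in each alternative run for the interaction, the omission of each single array included. For Tnf and Tnfaip3 the smoke difference had opposite signs in the labelled genotypes, while for Il1b, Il1r2 and Nos2 the difference in labelled-deficient hosts was from -0.14 to 0.29 and did not pass. For Il1rn (-0.28 ± 0.14), Birc3 (-0.24 ± 0.12), Il1a, Bcl3 and Il6 the interaction did not pass.

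**Figure D3:**
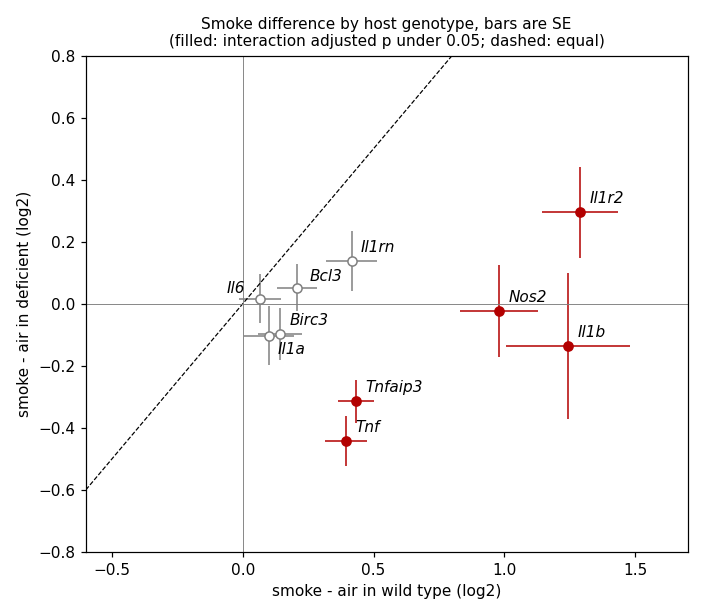
Smoke minus air in labelled-deficient hosts (y axis, log2) against the same difference in wild type hosts (x axis, log2) for the 10 genes, with bars of 1 SE and a dashed line of equal difference. The 5 filled points passed the interaction test, and Tnf and Tnfaip3 lie above 0 on the x axis (0.39 and 0.43) and below 0 on the y axis (-0.44 and -0.32).

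Other genes of these pathways were read from lists, with their counts set beside the shares of all genes given above. Of 22 measured genes of the IL-1 family and inflammasome, 7 rose and 3 fell with smoke in wild type hosts, and 13 were higher and 2 lower in deficient air than in wild type air. Under smoke 9 were higher and 6 lower. In the interaction 3 passed above 0 and 7 below. Il1rap, the co-receptor that IL-1 signalling needs, rose by 0.76 ± 0.11 with smoke in wild type, while the IL-18 receptor chain Il18r1 fell by 2.39 ± 0.12. The other chain of that receptor, Il18rap, rose by 0.94 ± 0.14 in the same comparison. Irak3, an inhibitor of IL-1 and Toll-like receptor signalling, was 1.19 ± 0.08 higher in deficient air and fell by 0.46 ± 0.08 with smoke in labelled-deficient hosts.

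Of 22 genes of TNF receptor signalling, 3 rose and 3 fell with smoke in wild type hosts, and 9 were higher and 2 lower in deficient air, and 8 and 5 in deficient smoke. Tnfrsf1b, which encodes TNF receptor 2, was 1.68 ± 0.10 higher in deficient air and fell by 0.60 ± 0.10 with smoke in labelled-deficient hosts. The necroptosis kinase gene Ripk3 rose by 1.15 ± 0.10 with smoke in wild type, and the adaptor Traf1 fell by 0.73 ± 0.10. Of 22 genes of IL-6 family signalling, 10 were higher and 3 lower in deficient air, and 10 were higher and 5 lower in deficient smoke. With smoke in wild type 5 rose and 4 fell, among them the related cytokine oncostatin M, Osm, which rose by 0.64 ± 0.12, and the shared receptor chain gp130, Il6st, which fell by 0.60 ± 0.07. In the interaction 1 gene of TNF receptor signalling passed above 0 and 2 below, and 3 and 5 of IL-6 family signalling.

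Of 32 further NF-kB feedback and target genes, 18 rose and 4 fell with smoke in wild type, 0 rose and 3 fell with smoke in labelled-deficient hosts, 18 were higher and 4 lower in deficient air, and 11 were higher and 10 lower in deficient smoke. In the interaction 3 passed above 0 and 13 below. Nfkbiz, another nuclear inhibitor-like protein induced by IL-1, had an interaction of -0.69 ± 0.08, as the 5 genes above did in sign. The adhesion molecule Icam1 (1.81 ± 0.12) and the A20-binding protein gene Tnip3 (2.12 ± 0.16) had interactions of the other sign. The activation marker Cd83 was 1.12 ± 0.08 higher in deficient air and fell by 0.53 ± 0.08 with smoke in labelled-deficient hosts.

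Cell type markers moved in the same comparisons, and in bulk tissue fewer cells of a type and less RNA per cell cannot be told apart. The mean level of 18 macrophage and monocyte markers was 8.88 to 9.17 under air and 9.62 to 9.78 under smoke in wild type hosts, and 9.62 to 9.67 under air and 9.46 to 9.58 under smoke in labelled-deficient hosts. Of the 18, 14 rose and 1 fell with smoke in wild type, 15 were higher and 0 lower in deficient air, 5 were higher and 9 lower in deficient smoke, 0 rose and 3 fell with smoke in labelled-deficient hosts, and 11 had an interaction below 0 and 1 above. The mean of 18 neutrophil markers was 6.28 to 6.44, 6.71, 7.00 to 7.05 and 7.07 to 7.14 in the same order of groups. Of these, 10 rose and 2 fell with smoke in wild type, 4 rose and 1 fell with smoke in labelled-deficient hosts, 12 were higher and 0 lower in deficient air, and 9 were higher and 6 lower in deficient smoke. In the interaction 2 passed above 0 and 4 below.

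Alveolar epithelial markers, which mark normal lung, were bright on all 12 arrays. Their mean was 10.7 to 10.9 under air and 8.72 to 8.89 under smoke in wild type hosts, and 11.6 to 11.7 at either exposure in labelled-deficient hosts. Of 16 such genes 15 fell with smoke in wild type and 16 were higher in deficient air. In the interaction 15 of the 16 passed above 0 and 0 below. The mean of 21 interferon response genes under air in wild type hosts was 8.15 for replicate 1 and 7.32 and 7.41 for replicates 2 and 3. It was 7.55 to 7.75 with smoke in wild type hosts, and 9.31 to 9.39 under air and 8.83 to 9.15 under smoke in labelled-deficient hosts. Of these 20 were higher in the labelled-deficient arrays at either exposure. T and NK cell markers had means of 6.43 to 6.60, 5.99 to 6.30, 7.81 to 7.86 and 7.33 to 7.47 in the same order of groups, and 17 of 17 were higher in the labelled-deficient arrays at either exposure. Of 16 endothelial markers 15 fell with smoke in wild type, 16 were higher in deficient air, and 15 had an interaction above 0 and 0 below. Of 11 B cell markers 4 fell with smoke under either host label, and 10 were higher in deficient air and 9 in deficient smoke. Of 12 dendritic cell markers 2 rose and 1 fell with smoke in wild type, 0 rose and 2 fell with smoke in labelled-deficient hosts, 6 were higher and 1 lower in deficient air, and 5 were higher and 2 lower in deficient smoke. Of 23 mitotic genes 10 rose with smoke in wild type and 23 were lower in the labelled-deficient arrays at either exposure. In the interaction 1 interferon response gene passed above 0 and 4 below, and 2 and 2 of the T and NK cell markers. For B cell markers these counts were 2 and 1, for dendritic cell markers 1 and 2, and for mitotic genes 0 and 3. The part of cell type shares and of interferon response in the differences of the 10 genes was not tested. Fits without wild type air replicate 1 are given above for the genes whose calls they changed, and why that array stood apart was not tested.

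**Figure D4:**
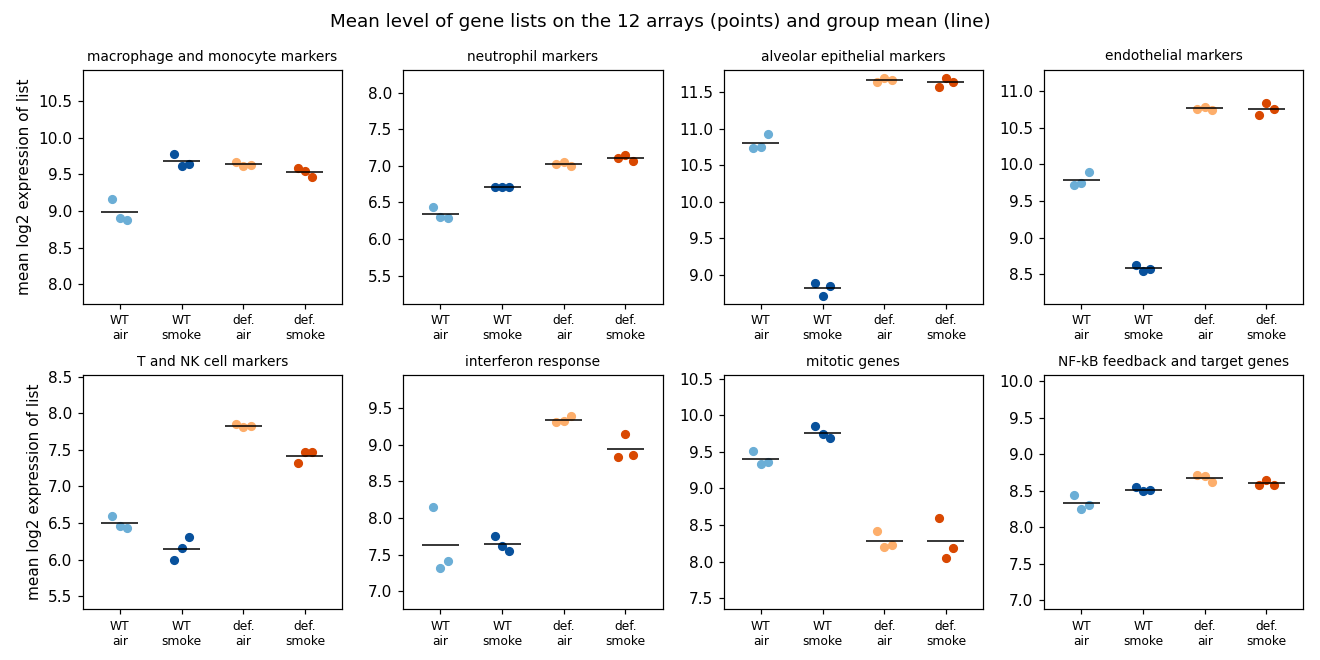
Mean log2 expression of 8 gene lists (y axis, 3.2 log2 units in every panel) on each of the 12 arrays (points) in the 4 groups (x axis; WT, wild type; def., labelled deficient), with group means as lines. Macrophage and monocyte markers are lowest in wild type air (8.88 to 9.17), and alveolar markers are lowest in wild type smoke (8.72 to 8.89).

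For the genes whose group means spanned at least 1 log2 unit, Il1b (1.80) and Il1r2 (1.29), the 3 nearest profiles among all other genes were sought by the root mean square difference over the 12 arrays, each gene centred on its mean. For Il1b, whose own SD over arrays was 0.80, these were Gm5150 (0.259), the macrophage pore-forming gene Mpeg1 (0.278) and the leukocyte integrin chain Itgb2 (0.284). Their lowest array was wild type air replicate 2 too, as for Il1b. Mpeg1 was 9.78 ± 0.32 under air and 10.4 ± 0.10 under smoke in wild type hosts, and 11.3 ± 0.08 and 11.2 ± 0.07 in labelled-deficient hosts. For Il1r2, with an SD of 0.57, they were the metalloproteinase gene Adam8 (0.153), the myeloid lectin Clec4d (0.158) and properdin, Cfp (0.181). Adam8 was 8.80 ± 0.41, 10.1 ± 0.14, 8.94 ± 0.19 and 9.01 ± 0.09 in the same order of groups, highest in wild type smoke as Il1r2 was. These genes were picked for likeness on the same 12 arrays, so shared high and low arrays come with the choice.

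**Figure D5:**
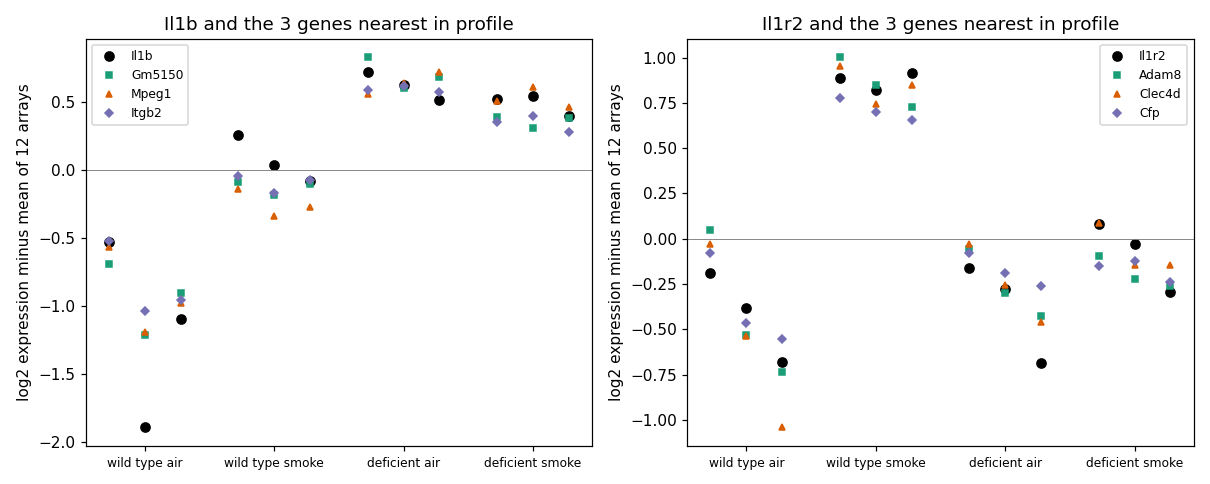
Log2 expression minus the mean of the 12 arrays (y axis) for Il1b (left) and Il1r2 (right) with the 3 genes nearest to each, with replicates 1 to 3 side by side in each group (x axis). Il1b lies lowest in wild type air replicate 2, and the 3 wild type smoke arrays are the highest of Il1r2 and of each gene beside it.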

How the data were processed

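Per the submitters' processing notes, the authors made the log2 values in Affymetrix Expression Console with RMA, the robust multi-array average (background correction, quantile normalization, probe summary). Versions and the genome build are not given in the sources used here. Of 34760 probe sets 21640 named 1 gene, and the brightest of a gene by mean over all arrays was kept, which gave 19937 genes. The platform annotation gave the symbols, and 0 changed when matched to RefSeq by Entrez identifier.

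Limma (3.58.1, R 4.3.3) fitted 1 mean per group to all 12 arrays (residual df 8, prior df 4.83). Tests were 2-sided, with Benjamini-Hochberg adjustment across the whole gene table within each of 5 contrasts and a limit of 0.05. Named genes were the 10 members, Rela, up to 4 genes per list and comparison with the smallest p, and the 3 nearest profiles of a member spanning 1 log2 unit. The 14 gene lists (264 of 293 entries measured, members left out) and the members were chosen with earlier results of these data known. The alternatives tried were a filter on dim genes (3 or more arrays reaching a log2 of 6, which left 15007), averaged probe sets, an intensity trend, array weights, quantile normalization, median centring, a replicate block, the compared arrays alone and leaving out each array. On simulated data for smoke in wild type (19937 genes), 98 of 100 genes shifted by 1 log2 unit, 70 of 100 shifted by 0.5 and 15 of 19737 unshifted genes were called. The simulated noise was independent between genes, and far fewer genes were shifted than the 5778 called in the data. These rates may therefore not carry over to the data. Python 3.11.15 and matplotlib 3.10.9 drew the figures. The number of arrays limits the precision.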

Additional observations from a re-analysis of the deposited data

Results flagged for a closer look

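For 5 genes the smoke difference in labelled-deficient hosts differed from that in wild type hosts by the interaction test in limma. The interaction was -1.38 for Il1b, -1.0 for Il1r2, -1.0 for Nos2, -0.84 for Tnf and -0.75 for Tnfaip3, each as the difference in deficient minus that in wild type. For Tnf and Tnfaip3 all 3 smoke arrays lay above all 3 air arrays in wild type hosts and below them in labelled-deficient hosts.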

How the results depend on the processing

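The counts of the 10 genes called stayed within 1.5 times in every alternative for smoke in wild type (6 or 7), genotype in air (5 to 8, the 5 being with the intensity filter, which leaves out Il1a) and the interaction (5). For smoke in labelled-deficient hosts the count of 2 became 1 with median centring and 0 to 2 when 1 array was left out. For genotype under smoke the count of 5 became 8 with array weights, which added Tnf, Il1b and Tnfaip3, and 4 to 6 when 1 array was left out. Of all genes 59.6% were called there in the main fit and 75.2% with array weights, so these counts do not set the 10 genes apart. No called difference of the 10 genes changed sign, 12 single-gene calls were lost and 14 gained, 927 kept their direction and side of the threshold, 27 differences that were not called changed sign without being called, and the cause was not tested. Over all genes, array weights gave 10211 calls in place of 5778 for smoke in wild type, 1368 in place of 481 for smoke in labelled-deficient hosts and 6662 in place of 2909 for the interaction. Median centring gave 9852 for smoke in wild type. The 6 compared arrays alone gave 3454 for smoke in wild type and 1018 for smoke in labelled-deficient hosts. Leaving out 1 array gave 3695 (without wild type air replicate 3) to 8824 (without wild type smoke replicate 1), 261 to 717, and 2239 to 4969 for these 3 comparisons. The labels do not say that replicate numbers pair the arrays, and not every pair correlated: deviations of same-numbered arrays correlated with r from -0.36 to 0.37 over 18 pairs, 7 of them over 0.1, 17 of 36 comparisons of an array with another group were best with its own number, and 2 of 12 arrays were so in every other group. The reported values use no block. With the replicate block 6, 2, 6, 5 and 5 of the 10 genes passed in the 5 comparisons, and 6084 genes for smoke in wild type. Il1a and Il6 are dim, so small differences in them are hard to see.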

Other observations

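Genes of nitric oxide and arginine use were read beside Nos2. Of 14 measured, 2 rose and 2 fell with smoke in wild type hosts, 1 rose and 1 fell with smoke in labelled-deficient hosts, and 2 passed above and 2 below 0 in the interaction. Of all genes 15% rose and 14% fell with smoke in wild type, so these counts do not set the list apart there. In labelled-deficient hosts 0.692% rose and 1.72% fell, and in the interaction 8.89% passed above and 5.7% below 0. Arg1, arginase 1, which uses the same substrate as Nos2, rose by 1.5 ± 0.18 with smoke in wild type, was lower in the labelled-deficient arrays under smoke (-2.39 ± 0.18) and had an interaction of -1.94 ± 0.26. Arg2, arginase 2, also rose with smoke in wild type (0.32 ± 0.08). Unlike Arg1 it was higher in the labelled-deficient arrays under smoke (0.84 ± 0.08), as it was in air (0.83 ± 0.08). With smoke the cationic amino acid transporter Slc7a2 went the other way from Arg1 in wild type. It fell by 0.32 ± 0.06 with smoke in wild type and rose by 0.47 ± 0.06 with smoke in labelled-deficient hosts, with an interaction of 0.79 ± 0.09. Ddah1, which breaks down an inhibitor of nitric oxide synthases, fell by 0.49 ± 0.07 with smoke in labelled-deficient hosts.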
